A study of Mus musculus with 8 samples.

Results

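The genes of RNA polymerase II and of the general transcription factors were followed in immature oligodendrocytes (iOLs) with and without the Mediator subunit gene Med23. The members were taken by symbol from the deposited expression table: every gene starting with Polr2, Gtf2, Supt or Taf followed by a digit, the Gtf2ird genes left out, together with Tbp, Cdk7, Ccnh, Mnat1, Ercc2, Ercc3, Cdk9, Ccnt1, Ccnt2, Nelfe and Ell2. This gave 68 genes of the 24346 in the table. Of these, 66 had a mean of at least 1 FPKM, the cuffdiff unit of fragments scaled by transcript length and by library size, and were tested among 12328 such genes. Just inside that limit lay Taf4b with a mean of 1.20 FPKM. Outside it were Taf7l, at a mean of 0.0418 FPKM, and Gtf2a1l, listed at 0 in all 8 libraries.

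RNA was sequenced from 4 Med23+/+ and 4 Med23-/- samples. All came from primary oligodendrocyte precursor cells (OPCs) immunopanned from mouse brain at postnatal day 7, by depletion on the lectin BSL1 and then capture with a CD140a antibody. The cells of both genotypes were expanded under 10% CO2 in PDGF-AA at 10 ng/mL with NT-3 at 1 ng/mL, and then differentiated for 1 day by the thyroid hormone T3 (15 nM) and the cytokine CNTF (10 ng/mL). In the study's methods Med23 is deleted by crossing Med23 fl/fl mice to the Olig1-cre line. In that line Cre is expressed from the Olig1 gene of the oligodendrocyte lineage, so the deletion depends on Cre activity in each cell. The study gives its knockout mice as Med23 fl/fl;Olig1-Cre+/- and their control littermates as Med23 fl/fl. It names the OPCs of control mice Med23+/+. Loss of Med23 and carriage of Olig1-Cre therefore cannot be told apart here. The labels do not say whether the 4 samples of a genotype came from separate animals or cultures. The p-values therefore set each difference against the spread between these samples, and whether they extend to other animals is unknown.

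RNA polymerase II (Pol II) transcribes protein-coding genes. It is placed at a start site by TFIIA, TFIIB, TFIID, TFIIE, TFIIF and TFIIH, where TFIID is made of the TATA-binding protein TBP and its associated factors (TAFs) and TFIIH holds the helicases and the kinase that act as transcription begins. Mediator, to which the MED23 protein belongs, contacts this machinery and the DNA-bound activators. Soon after starting, Pol II is held by DSIF and NELF and is released by the kinase P-TEFb.

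Promoter windows for 58 of the 68 members were taken from RefSeq on GRCm38.p6 (mm10), each of 300 bases from 250 before the start to 50 after it. The 4 windows shown belong to the gene of the catalytic subunit, to the 2 tested members with the greatest fall and to the single member called higher. Capitals mark the GC box GGGCGG, known as the site of Sp1-family factors, on either strand (CCGCCC on the other), and the TATA box TATAAA.
Polr2a (chr11:69758584-69758883, minus strand): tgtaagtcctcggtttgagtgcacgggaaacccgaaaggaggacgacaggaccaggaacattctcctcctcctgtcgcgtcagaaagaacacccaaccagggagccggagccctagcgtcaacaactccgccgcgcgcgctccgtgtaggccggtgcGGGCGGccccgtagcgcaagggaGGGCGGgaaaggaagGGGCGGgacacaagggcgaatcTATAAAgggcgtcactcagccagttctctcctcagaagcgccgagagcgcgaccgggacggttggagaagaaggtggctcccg
Taf13 (chr3:108571449-108571748, plus strand): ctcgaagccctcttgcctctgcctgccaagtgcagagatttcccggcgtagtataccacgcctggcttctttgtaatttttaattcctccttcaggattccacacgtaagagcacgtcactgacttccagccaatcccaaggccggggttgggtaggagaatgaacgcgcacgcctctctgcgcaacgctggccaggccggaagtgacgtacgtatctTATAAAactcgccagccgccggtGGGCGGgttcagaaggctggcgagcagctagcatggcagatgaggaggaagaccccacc
Gtf2f2 (chr14:76010816-76011115, minus strand): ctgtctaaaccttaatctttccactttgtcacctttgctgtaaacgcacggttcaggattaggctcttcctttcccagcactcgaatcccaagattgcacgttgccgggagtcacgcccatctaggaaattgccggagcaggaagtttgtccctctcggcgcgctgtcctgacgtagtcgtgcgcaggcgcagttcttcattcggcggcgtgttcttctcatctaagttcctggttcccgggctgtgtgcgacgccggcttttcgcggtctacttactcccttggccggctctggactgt
Supt4a (chr11:87737301-87737600, plus strand): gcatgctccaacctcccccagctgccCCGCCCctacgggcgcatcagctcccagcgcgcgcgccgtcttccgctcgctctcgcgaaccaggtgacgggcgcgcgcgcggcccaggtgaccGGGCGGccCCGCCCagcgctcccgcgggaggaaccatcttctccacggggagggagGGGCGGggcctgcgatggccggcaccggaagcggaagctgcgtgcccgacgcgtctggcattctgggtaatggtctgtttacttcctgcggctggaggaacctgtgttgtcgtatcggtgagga
Polr2a carried 3 GC boxes, beginning 93, 70 and 55 bases before the start, and a TATA box 33 bases before it. Taf13 had a TATA box at 32 bases before the start and 1 GC box at 9 bases before it. Supt4a had 4 GC boxes at 224, 130, 122 and 74 bases before the start and no TATA box, and the Gtf2f2 window held neither set of letters. The 4 windows thus differed in both motifs, including the pair that fell the most.

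Over the 58 members with a window, the GC box was found on either strand in 44 (75.9%), compared with 70.9% of the 9295 tested genes with a window and 35.6% of all 32817 windows. It was present in 6 of the 7 members called lower that have a window, in the 1 called higher and in 36 of the 48 (75.0%) not called. TATAAA was found on either strand in 9 members (15.5%), in 8.19% of the tested genes and in 13.6% of all windows. The letters CCGGAAG, which form a core motif of ETS-family factors, were found on either strand in 21 members (36.2%), in 20.4% of the tested genes and in 8.86% of all windows. A gene counted if any of its windows matched, and 12 members have several windows, whereas the share of all windows is per window. Counted by gene, the GC box was in 38.2%, TATAAA in 15.7% and CCGGAAG in 9.93% of all 27025 genes with a window. Each motif was counted on its own, and matches of CCGGAAG and GGGCGG can share bases. A match is a description of the window, and no match says only that the letters are not in these 300 bases.

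Med23 itself was checked first. Its level was 12.7, 12.2, 12.6 and 12.6 FPKM in Med23+/+ and 8.40, 7.93, 8.49 and 8.21 FPKM in Med23-/- iOLs, a mean of 12.5 ± 0.225 against 8.26 ± 0.247 (SD, n = 4). The Med23-/- libraries were all below the Med23+/+ libraries, at 0.658 of their mean (log2 difference of -0.55, SE 0.07, limma adjusted p = 0.000353). This value is over the whole gene, and the deleted exons were not looked at separately here. Log2 differences here and throughout are Med23-/- minus Med23+/+ on the log2(FPKM + 1) scale, which understates the change of low genes. The oligodendrocyte lineage markers (Olig1, Olig2, Sox10, Cspg4, Pdgfra) summed to 1139 to 1541 FPKM in Med23+/+ and 1369 to 1838 in Med23-/- libraries, with 1 lower and 2 higher.

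Marker sums for cell state moved with genotype. The 5 premyelinating and myelinating markers used (Mbp, Cnp, Mag, Mog, Myrf) all fell, and their sum was 519 to 621 FPKM in Med23+/+ but 144 to 284 FPKM in Med23-/- libraries. The 10 proliferation genes (such as Mki67 and Top2a) all rose, with a sum of 157 to 311 FPKM in Med23+/+ and 363 to 722 FPKM in Med23-/- libraries. The 5 neuron markers (Rbfox3, Snap25, Syt1, Tubb3, Stmn2) all rose too, with a sum of 35.4 to 57.5 FPKM in Med23+/+ and 73.4 to 144 FPKM in Med23-/- libraries. The 5 astrocyte markers summed to 27.5 to 71.6 FPKM in Med23+/+ and to 24.4 to 44.1 FPKM in Med23-/- libraries, with 2 lower and 1 higher. The 5 microglia markers summed to 1.52 FPKM or less in every library, with Aif1, Cx3cr1, Tmem119 and Csf1r under 1 FPKM throughout, and none was tested. The endothelial sum was 0.496 to 1.17 FPKM in Med23+/+ and 1.13 to 2.97 FPKM in Med23-/- libraries, with Cldn5, Pecam1, Cdh5 and Flt1 under 1 FPKM throughout and Kdr, the 1 marker tested, higher. That of mural cells and fibroblasts was 0.826 to 7.57 FPKM in Med23+/+ and 2.32 to 13.2 FPKM in Med23-/- libraries, and the 1 marker tested was not called. The part of these shifts in the differences below was not tested, and in bulk RNA fewer cells of a type and less RNA per cell cannot be told apart.

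Of the 66 members tested, 9 fell in Med23-/- iOLs, 1 rose and 56 were not called, at an adjusted p under 0.05 from limma with Benjamini-Hochberg adjustment over all 12328 genes. The members lower were Taf13, Gtf2f2, Polr2g, Taf1d, Taf10, Gtf2h1, Gtf2e2, Polr2h and Cdk9, and the member higher was Supt4a. The share lower, 13.6%, lay near the 14.1% of all genes called lower, and the share higher, 1.52%, lay below the 15.9% of all genes called higher. At an unadjusted p under 0.05 the members numbered 16 lower (24.2%) and 2 higher (3.03%), where 20.3% of all genes were lower and 21.1% higher. The median log2 difference was -0.11 over the members and -0.01 over all genes tested. Of the members 43 were below 0 and 23 above it, compared with 6375 and 5953 of all 12328 genes.

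The differences of the members ran from -0.74 to 0.54, with a median size of 0.146 on the log2 scale against 0.205 over all genes tested. With a fold above 2 on the log2(FPKM + 1) scale required as well, limma called 0 members lower and 0 higher. Of all genes, 1.75% were lower and 2.98% higher at that limit. For 51 of the 56 members not called, the 95% interval of the difference lay within 1.5-fold in either direction on the log2(FPKM + 1) scale. For all 66 members it lay within 2-fold on that scale, which understates the change of low members such as Taf4b (mean 1.20 FPKM). The genotypes did not overlap in 10 members (15.2%), 9 lower and 1 higher, compared with 31.6% of all genes tested. The spread within a genotype was alike for members and other genes (median residual SD 0.150 and 0.160 on the log2 scale).

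**Figure D1:**
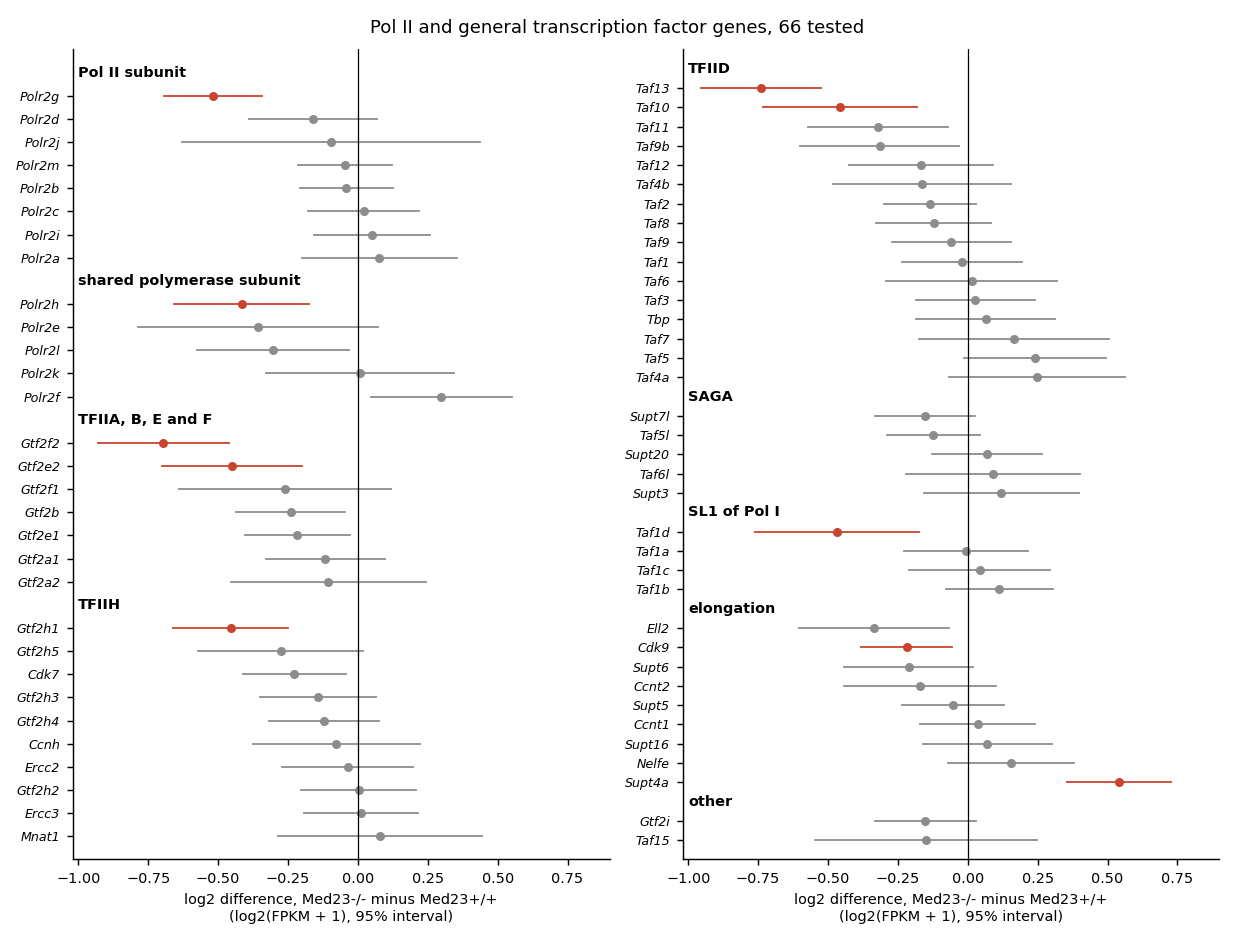
Difference of each of the 66 tested members, Med23-/- minus Med23+/+, on the log2(FPKM + 1) scale, grouped by complex; points are limma estimates, bars their 95% intervals, and red marks an adjusted p under 0.05. The 9 red members below 0 are spread over 7 of the 9 groups, and Supt4a at 0.54 is the single red point above 0.

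The 8 genes of Pol II itself gave 1 fall, Polr2g, which encodes a subunit of the stalk that projects from the enzyme. Polr2g measured 63.1, 67.1, 69.3 and 63.4 FPKM in Med23+/+ and 46.0, 40.7, 49.4 and 46.5 FPKM in Med23-/- iOLs. The Med23-/- libraries were all lower than the Med23+/+ libraries, at 65.7 ± 3.02 against 45.7 ± 3.62 FPKM (SD, n = 4). The log2 difference was -0.52 (SE 0.08, limma adjusted p = 0.0012), a ratio of 0.695. Polr2d, which encodes the other subunit of the stalk, was 45.5 ± 5.75 and 40.5 ± 3.31 FPKM (log2 difference of -0.16, 95% interval -0.39 to 0.07, limma adjusted p = 0.275). The Polr2g to Polr2d ratio was 1.62, 1.57, 1.40 and 1.24 in Med23+/+ and 1.23, 1.06, 1.20 and 1.04 in Med23-/- libraries, without overlap. The difference between the 2 genes was not tested, here or for the later pairs. Each ratio has a called member as its first gene, so a ratio that separates the genotypes partly restates that call.

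Polr2a encodes the catalytic subunit, which carries the repeat tail that the transcription kinases modify. It measured 40.0, 40.3, 45.9 and 47.4 FPKM in Med23+/+ and 45.9, 43.8, 37.6 and 57.7 FPKM in Med23-/- libraries. The Med23-/- libraries took in both the lowest and the highest of the 8 values. Its log2 difference was 0.08 (SE 0.12, 95% interval -0.20 to 0.36, limma adjusted p = 0.686), and it was -0.03 without Med23-/- replicate 4. Polr2b, the partner of Polr2a in the active site, gave -0.04 (-0.21 to 0.13). The other 4 genes of the group, Polr2c, Polr2i and Polr2j for subunits and Polr2m for the Pol II-associated inhibitor GDOWN1, lay between -0.10 and 0.05. Polr2j had the widest interval of the 8, from -0.63 to 0.44, with 35.8 FPKM in Med23-/- replicate 3 and 73.2 FPKM in replicate 4.

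The 5 subunits that Pol II shares with Pol I and Pol III were less alike. Polr2h fell. It measured 25.1, 20.8, 17.9 and 18.0 FPKM in Med23+/+ and 15.3, 15.5, 14.4 and 14.5 FPKM in Med23-/- libraries. The genotypes did not overlap, and Med23+/+ replicate 1 stood highest (log2 difference of -0.42, SE 0.11, limma adjusted p = 0.0166). Without that library the difference was -0.32 and the call held. Polr2h has a processed pseudogene, Gm7511, that matches 445 bases of its transcript at 98.0% identity, so reads could be shared between them.

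Polr2f pointed the other way and was not called. It measured 93.6, 89.4, 91.5 and 105 FPKM in Med23+/+ and 114, 99.2, 114 and 144 FPKM in Med23-/- iOLs. Of the 4 Med23-/- libraries, 3 were above all Med23+/+ libraries and replicate 2 overlapped them (log2 difference of 0.30, SE 0.11, limma adjusted p = 0.0721). Polr2e and Polr2l were at -0.36 (-0.79 to 0.07) and -0.30 (-0.58 to -0.03), with limma adjusted p of 0.194 and 0.0871. Polr2k was at 0.01 with an interval of -0.33 to 0.35. The Polr2e interval reached the lowest of all members not called.

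**Figure D2:**
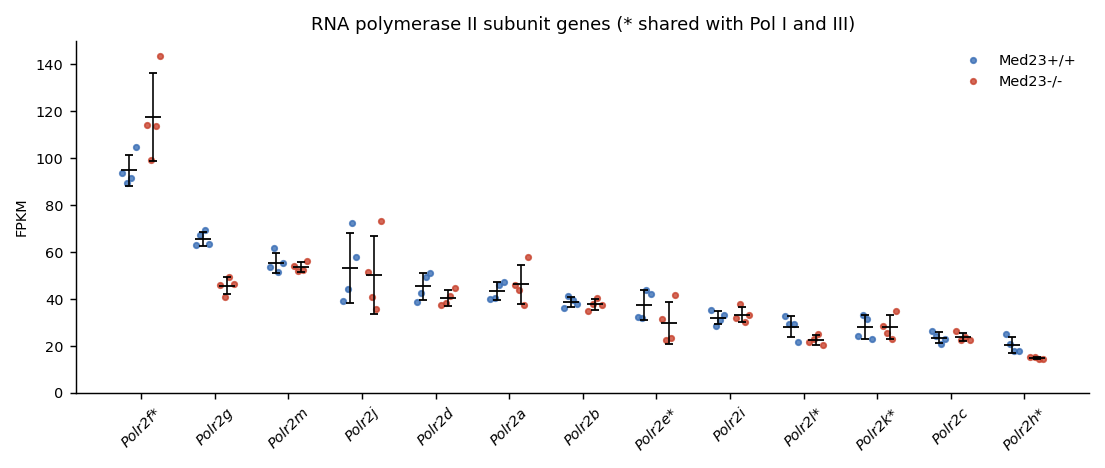
FPKM of the 13 polymerase genes in each library, ordered by the mean of the 4 Med23+/+ libraries. Points are libraries (blue Med23+/+, red Med23-/-), and the bars give the mean and SD of 4 libraries. Polr2f stands above the others in both genotypes, and the Polr2g libraries separate by genotype.

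FPKM is scaled by transcript length, so levels can be set side by side between genes. In Med23+/+ iOLs the mean levels of the polymerase genes ran from 94.8 FPKM for Polr2f, through 65.7 for Polr2g, 55.5 for Polr2m, 53.4 for Polr2j, 45.5 for Polr2d and 43.4 for Polr2a, down to 23.6 for Polr2c and 20.5 for Polr2h. The Polr2f libraries lay above those of every other polymerase gene, and the Polr2g libraries lay above those of Polr2m. Each later pair of neighbours in the order overlapped in its libraries. In Med23-/- iOLs Polr2f was again highest, at 118 FPKM, while Polr2g at 45.7 FPKM came after Polr2m (53.6), Polr2j (50.4) and Polr2a (46.2), whose libraries it overlapped in the case of Polr2j and Polr2a.

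All 7 tested genes of TFIIA, TFIIB, TFIIE and TFIIF were below 0, where 6375 of all 12328 genes tested were. The median log2 difference of the 7 was -0.24. Gtf2f2 and Gtf2e2, 2 of the 7, fell, where 14.1% of all genes were called lower. Gtf2f2 encodes the small subunit of TFIIF, which escorts Pol II to the promoter. It measured 24.6, 29.7, 33.0 and 29.8 FPKM in Med23+/+ and 19.4, 15.4, 17.3 and 18.6 FPKM in Med23-/- libraries. There was no overlap between genotypes (29.3 ± 3.45 against 17.7 ± 1.75 FPKM, SD, n = 4). The log2 difference was -0.70 (SE 0.10, limma adjusted p = 0.0011), a ratio of 0.603.

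The large subunit of TFIIF, Gtf2f1, was 18.8, 19.4, 24.5 and 21.2 FPKM in Med23+/+ and 16.4, 14.9, 14.0 and 25.5 FPKM in Med23-/- libraries. Med23-/- replicate 4 was the highest of the 8 and the other 3 were the lowest (log2 difference of -0.26, 95% interval -0.64 to 0.12, limma adjusted p = 0.282). Without replicate 4, Gtf2f1 was called lower as well. The Gtf2f2 to Gtf2f1 ratio had a mean of 1.40 ± 0.0976 in Med23+/+ and 1.04 ± 0.226 in Med23-/- libraries, without overlap.

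Gtf2e2, which encodes the beta subunit of TFIIE, measured 16.7, 19.4, 19.9 and 17.0 FPKM in Med23+/+ and 10.5, 13.5, 15.1 and 13.5 FPKM in Med23-/- libraries. All Med23-/- libraries were the lower, and Med23-/- replicate 1 was lowest (log2 difference of -0.45, SE 0.11, limma adjusted p = 0.0141). Its alpha partner Gtf2e1 was 17.4 ± 1.00 and 14.9 ± 1.40 FPKM (-0.22, 95% interval -0.41 to -0.03, limma adjusted p = 0.0819). The Gtf2e2 to Gtf2e1 ratio was 1.05 ± 0.0865 in Med23+/+ and 0.884 ± 0.112 in Med23-/- libraries, and the genotypes overlapped. TFIIB, from Gtf2b, which bridges TBP and Pol II, gave 27.1 ± 2.71 and 22.7 ± 1.35 FPKM (-0.24, -0.44 to -0.04, limma adjusted p = 0.0641). The TFIIA genes Gtf2a1 and Gtf2a2 were at -0.12 (-0.33 to 0.10) and -0.11 (-0.45 to 0.24), and Med23-/- replicate 4 was again the highest of the 8 libraries for Gtf2a2, at 51.7 FPKM.

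Of 16 TFIID genes tested, 2 fell (12.5%), Taf13 and Taf10, where 14.1% of all genes were called lower. Both encode TAFs with a histone fold, as do Taf6, Taf8, Taf9, Taf11 and Taf12, none of them called. Taf13 (chr3:108571698-108583222, plus strand) measured 36.4, 38.9, 45.5 and 37.9 FPKM in Med23+/+ and 22.6, 25.4, 24.8 and 20.5 FPKM in Med23-/- libraries. The highest Med23-/- library was well below the lowest Med23+/+ library. The means were 39.7 ± 4.03 and 23.3 ± 2.23 FPKM (SD, n = 4), a ratio of 0.588 and a log2 difference of -0.74 (SE 0.10, limma adjusted p = 0.0005), the lowest of the members. Processed pseudogenes of Taf13 were matched over 375 bases (Gm11189, 98.9% identity) and 373 bases (Gm9643, 95.7% identity) of a transcript of 2443 bases.

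Taf11, the histone-fold partner of Taf13, was 22.5, 17.6, 24.0 and 21.4 FPKM in Med23+/+ and 14.4, 18.0, 16.7 and 18.4 FPKM in Med23-/- libraries. Med23+/+ replicate 2 lay among the Med23-/- libraries (log2 difference of -0.32, SE 0.11, 95% interval -0.57 to -0.07, limma adjusted p = 0.0544). The Taf13 to Taf11 ratio was 1.87 ± 0.255 in Med23+/+ and 1.40 ± 0.200 in Med23-/- libraries, without overlap.

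Taf10, a TAF found in both TFIID and the SAGA complex, measured 49.7, 49.8, 55.6 and 58.4 FPKM in Med23+/+ and 45.7, 32.4, 33.6 and 44.2 FPKM in Med23-/- libraries. The genotypes did not overlap, and Med23-/- replicates 2 and 3 were lowest (log2 difference of -0.46, SE 0.12, limma adjusted p = 0.0204). The call was lost without Med23+/+ replicate 3, without Med23+/+ replicate 4 or without Med23-/- replicate 3, where the adjusted p ran from 0.0513 to 0.0587. Processed pseudogenes of Taf10 were matched over 1181 bases (Gm6263, 96.3% identity) and 657 bases (Gm4799, 96.7% identity) of a transcript of 4281 bases. Taf10 (chr7:105739393-105744361, minus strand) shares 2106 exon bases, 45.9% of its own, with Ilk on the opposite strand. Ilk fell from 60.1 to 44.6 FPKM (-0.42, limma adjusted p = 0.0136), and whether the counting used strand is not given in the sources used here, so the reads of Taf10 and Ilk cannot be told apart there.

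Tbp, which encodes the TATA-binding protein, measured 9.67, 11.0, 12.1 and 11.5 FPKM in Med23+/+ and 9.71, 11.0, 12.3 and 13.6 FPKM in Med23-/- libraries. The genotypes overlapped along nearly their whole range (log2 difference of 0.06, SE 0.11, 95% interval -0.18 to 0.31, limma adjusted p = 0.708). The TAF genes Taf1, Taf2, Taf3 and Taf8 were at -0.02, -0.14, 0.03 and -0.12. The Taf10 to Taf8 ratio was 6.34 ± 0.541 in Med23+/+ and 5.15 ± 1.25 in Med23-/- libraries, and the genotypes overlapped. Taf5 and Taf4a lay highest in the group, at 0.24 (-0.01 to 0.49) and 0.25 (-0.07 to 0.56). Taf9 gave -0.06 (-0.27 to 0.15), but 73.8% of its exon bases are shared with Ak6 on the same strand, so the 2 genes are uncertain, while its paralogue Taf9b gave -0.32 (-0.60 to -0.03, limma adjusted p = 0.0892). The remaining TFIID genes, Taf4b, Taf6, Taf7 and Taf12, lay between -0.17 and 0.16.

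**Figure D3:**
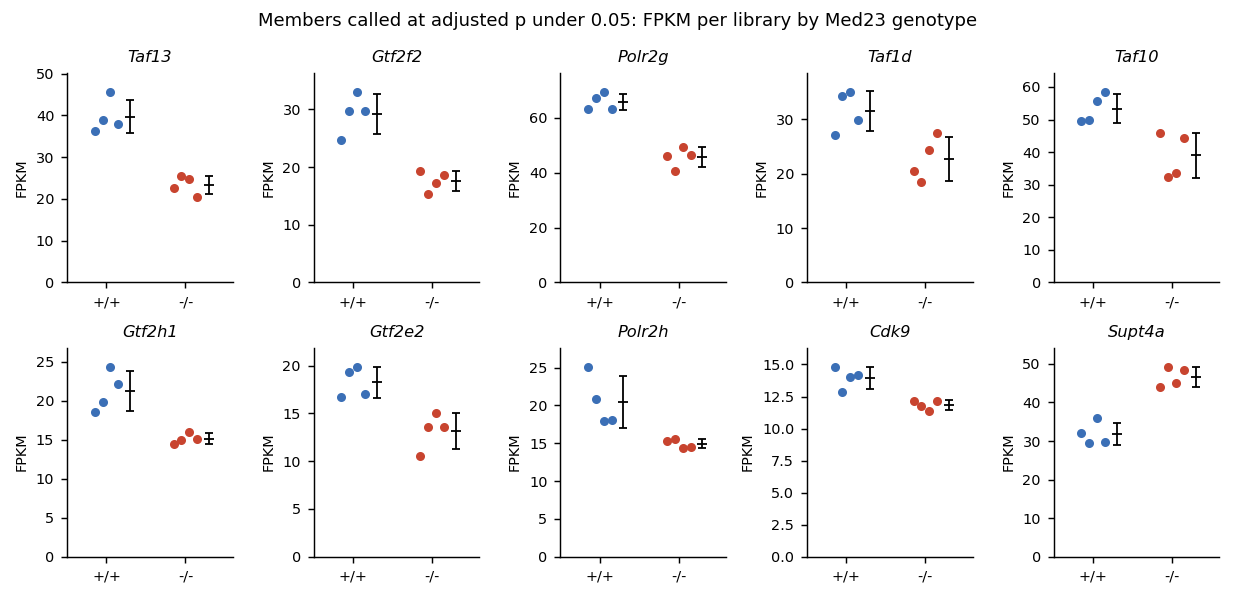
FPKM of the 10 called members in each library (blue Med23+/+, red Med23-/-), with the mean and SD of 4 libraries beside them; every vertical axis starts at 0. The genotypes separate in each panel but that of Taf1d, where Med23-/- replicate 4 at 27.5 FPKM lies above Med23+/+ replicate 1 at 27.1 FPKM.

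Among the 10 TFIIH genes, Gtf2h1 fell. It encodes a core subunit of the complex, which opens promoter DNA and also serves nucleotide excision repair. Gtf2h1 measured 18.6, 19.8, 24.4 and 22.1 FPKM in Med23+/+ and 14.5, 14.9, 16.1 and 15.1 FPKM in Med23-/- libraries. The Med23-/- libraries lay close together and below all Med23+/+ libraries (21.2 ± 2.58 against 15.1 ± 0.668 FPKM, SD, n = 4). The log2 difference was -0.45 (SE 0.09, limma adjusted p = 0.0053). The other core genes lay from -0.28 for Gtf2h5 (-0.57 to 0.02) to 0.01 for the translocase Ercc3 (-0.19 to 0.21), with the helicase Ercc2 at -0.04.

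The kinase module of TFIIH, which phosphorylates the tail of Pol II, is made from Cdk7, Ccnh and Mnat1. Cdk7 measured 12.3, 13.8, 12.9 and 12.2 FPKM in Med23+/+ and 10.5, 11.5, 11.5 and 9.69 FPKM in Med23-/- libraries. All Med23-/- libraries were below all Med23+/+ libraries, but Cdk7 was not called (log2 difference of -0.23, SE 0.08, 95% interval -0.41 to -0.04, limma adjusted p = 0.0631). The cyclin gene Ccnh was at -0.08 (-0.38 to 0.22), and Mnat1, the assembly factor, was at 0.08 (-0.29 to 0.44) with 8.77 FPKM in Med23-/- replicate 1 and 13.6 ± 3.33 over the 4 libraries.

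The 9 elongation genes held the member that rose. Supt4a (chr11:87737552-87743623, plus strand) encodes the small subunit of DSIF. It measured 32.2, 29.4, 35.9 and 29.8 FPKM in Med23+/+ and 43.9, 49.3, 45.1 and 48.4 FPKM in Med23-/- libraries. Every Med23-/- library was above every Med23+/+ library, at 46.7 ± 2.57 against 31.8 ± 2.94 FPKM (SD, n = 4). The log2 difference was 0.54 (SE 0.08, limma adjusted p = 0.0012), a ratio of 1.47. The processed pseudogene Supt4b matches 351 bases of the Supt4a transcript at 99.1% identity, was not analysed here, and could share its reads.

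Supt5 encodes the large subunit of DSIF. It was 36.3, 33.9, 38.0 and 36.2 FPKM in Med23+/+ and 37.2, 33.4, 31.2 and 37.5 FPKM in Med23-/- libraries, and the genotypes overlapped (log2 difference of -0.05, 95% interval -0.23 to 0.13, limma adjusted p = 0.667). The Supt4a to Supt5 ratio was 0.885, 0.869, 0.944 and 0.825 in Med23+/+ and 1.18, 1.47, 1.45 and 1.29 in Med23-/- libraries. Supt4a was thus below Supt5 in each Med23+/+ library and above it in each Med23-/- library. Nelfe, a subunit of NELF, was at 0.15 (-0.07 to 0.38).

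Cdk9, the kinase of P-TEFb, measured 14.8, 12.8, 14.0 and 14.2 FPKM in Med23+/+ and 12.1, 11.7, 11.3 and 12.2 FPKM in Med23-/- libraries. The genotypes did not overlap, but the nearest libraries lay close together (log2 difference of -0.22, SE 0.07, limma adjusted p = 0.0459). The call was lost when any library other than Med23+/+ replicate 2 was left out, where the adjusted p ran from 0.0621 to 0.113. The cyclin T genes were not called. The Cdk9 to Ccnt1 ratio was 0.857 ± 0.123 in Med23+/+ and 0.706 ± 0.0483 in Med23-/- libraries, and the genotypes overlapped. Ccnt1 measured 14.6, 16.1, 19.1 and 16.0 FPKM in Med23+/+ and 15.8, 16.3, 17.0 and 18.3 FPKM in Med23-/- libraries. Its Med23-/- libraries lay within the Med23+/+ range (log2 difference of 0.04, SE 0.09, 95% interval -0.17 to 0.24, limma adjusted p = 0.81), and Ccnt2 was at -0.17 (-0.44 to 0.10).

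Ell2 encodes a subunit of the super elongation complex. It was 5.08, 6.97, 7.11 and 5.77 FPKM in Med23+/+ and 3.995, 4.99, 5.32 and 4.56 FPKM in Med23-/- libraries, and only Med23-/- replicate 3 and Med23+/+ replicate 1 overlapped. The log2 difference was -0.34 (SE 0.12, 95% interval -0.61 to -0.07, limma adjusted p = 0.0615), and without Med23+/+ replicate 1 it was -0.42 with an adjusted p of 0.0314. Supt6 and Supt16, whose products move histones ahead of and behind Pol II, were at -0.21 (-0.44 to 0.02) and 0.07 (-0.16 to 0.30).

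The symbol rule also took genes that work elsewhere. The 4 TAFs of SL1, the factor that recruits Pol I to ribosomal DNA, gave 1 fall. Taf1d measured 27.1, 34.2, 34.9 and 29.8 FPKM in Med23+/+ and 20.4, 18.4, 24.3 and 27.5 FPKM in Med23-/- libraries. The genotypes overlapped, since Med23-/- replicate 4 lay above Med23+/+ replicate 1 (log2 difference of -0.47, SE 0.13, limma adjusted p = 0.0236). The call was lost on leaving out Med23+/+ replicate 2 or 3 or Med23-/- replicate 1 or 2, where the adjusted p ran from 0.0553 to 0.0658. The Taf1d transcript also carries snoRNA and miRNA genes and matches the pseudogene Gm13487 over 880 bases at 95.6% identity. Taf1a, Taf1b and Taf1c lay between -0.01 and 0.11.

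None of the 5 SAGA genes was called by limma, and 0 passed an unadjusted p under 0.05. Supt3, Supt7l, Supt20, Taf5l and Taf6l ranged from -0.15 to 0.12. The sequence-specific factor Gtf2i, which had the highest mean of the members over the 8 libraries, was 124 ± 6.92 and 111 ± 8.46 FPKM (-0.15, 95% interval -0.33 to 0.03), and the RNA-binding protein gene Taf15 gave -0.15 (-0.55 to 0.25).

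The libraries did not contribute evenly to the spread. Med23+/+ replicate 3 was highest of its genotype in 29 of the 66 members (34.9% of all genes tested). Med23+/+ replicate 1 was lowest of its genotype in 33 members, and its share over all genes was not counted. The median deviation of Med23+/+ replicate 1 from the genotype mean was -0.083 over the members and -0.0034 over all genes, on the log2 scale. Med23-/- replicate 4 was highest of its genotype in 30 members (33.5% of all genes tested). Without Med23+/+ replicate 3, 6 members were called lower, since Cdk9, Taf10 and Taf1d were lost, and without Med23-/- replicate 2 Polr2f was called higher beside Supt4a. Taf13, Gtf2f2, Polr2g, Gtf2h1, Gtf2e2, Polr2h and Supt4a stayed called whichever library was left out.

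**Figure D4:**
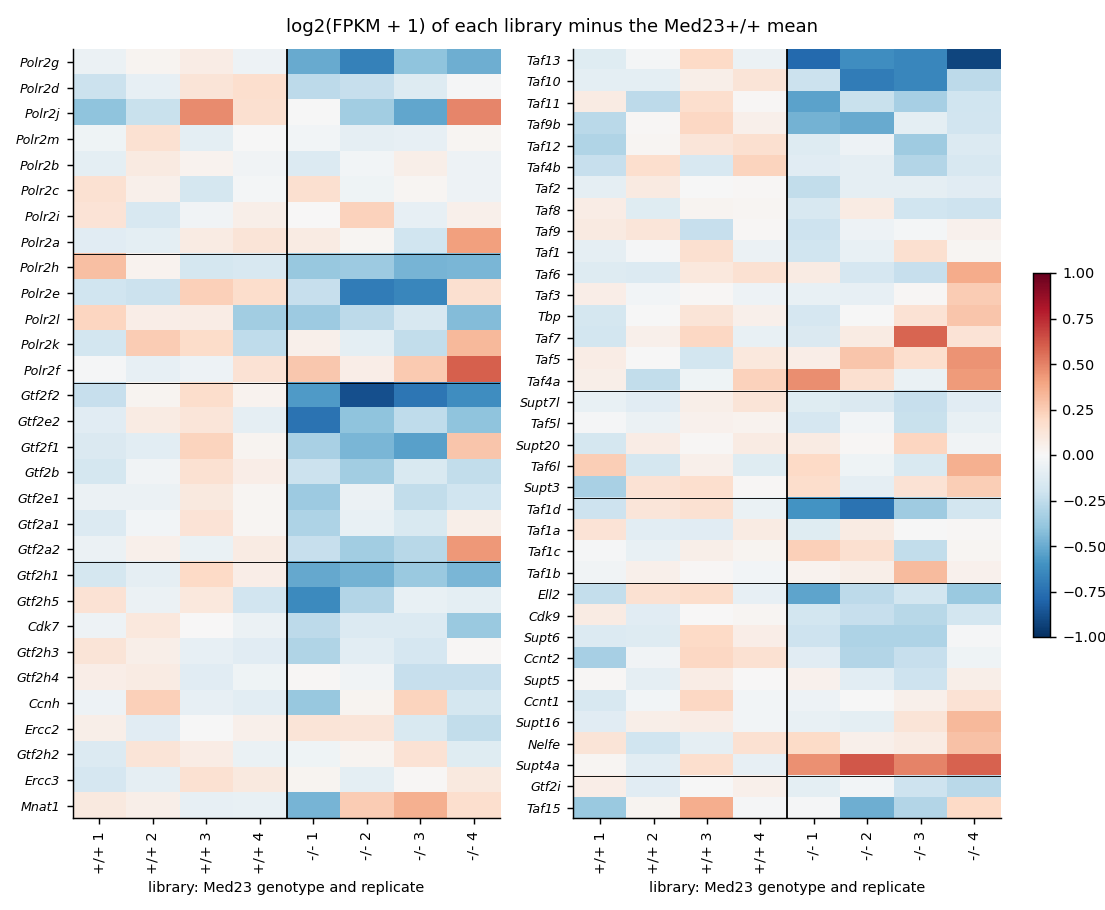
log2(FPKM + 1) of each library minus the mean of the 4 Med23+/+ libraries, for the 66 tested members in the order of their complexes; red is higher and blue lower, columns are libraries and the vertical line divides the genotypes. The called rows (for example Polr2g, Gtf2f2, Taf13 and Supt4a) keep 1 colour across the 4 Med23-/- libraries, whereas Med23-/- replicate 4 is the reddest in Polr2f, Polr2a, Gtf2a2 and Taf6.

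The other genes of the pathway were a list of 38 pause, elongation, tail-modifying and TBP-regulating genes outside the symbol rule. Of the 35 tested, 3 were lower (8.57%) and 2 higher (5.71%), where 14.1% and 15.9% of all genes were. The count lower was 1 without Med23+/+ replicate 1, 3 or 4 or Med23-/- replicate 1. The count higher was 1 without Med23+/+ replicate 1, 2 or 4 or Med23-/- replicate 3 or 4, and 3 without Med23-/- replicate 2. The median log2 difference of the list was -0.09. Eaf1, whose product binds the ELL proteins, fell from 17.5 ± 1.25 to 11.2 ± 0.824 FPKM (-0.61, limma adjusted p = 0.0007). Hexim1, the inhibitor of P-TEFb, rose from 15.5 ± 0.537 to 21.8 ± 1.46 FPKM (0.47, limma adjusted p = 0.0014). Paf1, which names an elongation complex, fell from 33.8 ± 4.18 to 26.5 ± 2.37 FPKM (-0.33, limma adjusted p = 0.0306). For these 3 genes the libraries of the genotypes did not overlap, as in 17.1% of the list and 31.6% of all genes tested.

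The 28 genes for subunits and factors of Pol I and Pol III, set beside the members, gave 10 lower (35.7%) and 0 higher by limma. All genes gave 14.1% and 15.9%. At an unadjusted p under 0.05, 12 of the 28 were lower (42.9%) and 0 higher, where all genes gave 20.3% and 21.1%. The median log2 difference of the 28 was -0.21, against -0.01 over all genes tested. Among those called, the Pol III subunit gene Polr3d fell from 11.9 ± 1.25 to 6.78 ± 0.557 FPKM (-0.73, limma adjusted p = 0.0005) and Polr3g, for another subunit, from 2.67 ± 0.348 to 1.31 ± 0.199 FPKM (-0.67, limma adjusted p = 0.0027). The difference between the polymerases was not tested.

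**Figure D5:**
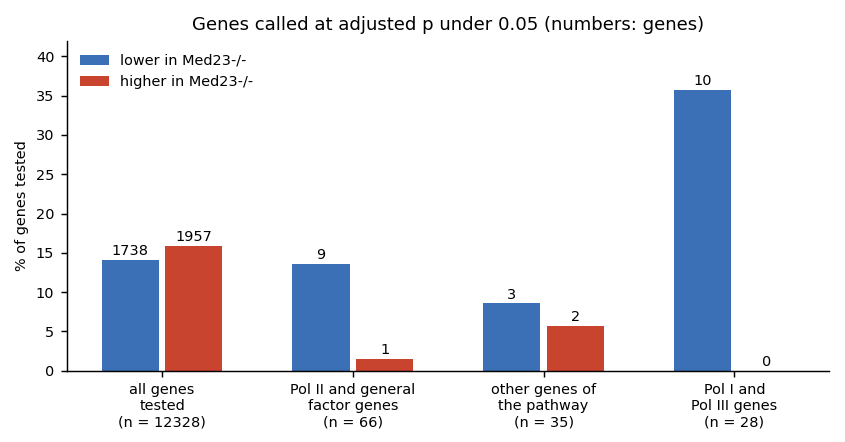
Percent of tested genes called lower (blue) and higher (red) in Med23-/- iOLs at an adjusted p under 0.05, with the number of genes above each bar. The members stand at 13.6% lower and 1.52% higher, beside 14.1% and 15.9% of all genes tested.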

How the data were processed

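RNA was extracted with TRIzol, and libraries were made from 1 µg of total RNA per sample with a New England Biolabs kit and sequenced on the Illumina X-10 platform. The authors used FastQC for quality checks, Cutadapt for trimming, Tophat2 for alignment to mm10 and cuffdiff (-b, -u) for quantification. Their versions, the annotation, the library normalization and the strand setting are not given in the sources used here. The authors deposited FPKM values per library for 24346 genes. FPKM carries no read count, so library depth is unknown and no counting interval is given. The deposited table also holds the genotype means and the fold changes, p-values and q-values of cuffdiff, which were not used, and 0 library columns were left out.

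The 8 libraries were grouped by genotype from their labels. Values were taken as log2(FPKM + 1), and the genes averaging 1 FPKM or more were fitted by limma 3.58.1 (R 4.3.3) using lmFit and eBayes, the latter with its mean-variance trend, and no covariate. Benjamini-Hochberg adjustment ran over the 12328 genes, and a gene was called at an adjusted p under 0.05. No count model was used. Intervals are at 95%. Alternatives were a pseudocount of 0.1, other filters on low values (none, and a mean of 5 FPKM), quantile normalization, median-ratio scaling, no trend, the replicate number as a block, sample weights, replicates 1 and 2 against 3 and 4 as a covariate, a fold above 2, and leaving out each library. The members and lists were chosen with earlier results of these data known. Full values are given for Polr2a, Tbp, Cdk7, Cdk9, Ccnt1 and Ell2 whatever they did, for every called member (12 at most), and for the 3 called genes with the greatest difference in each of the other lists. Some genes that meet these rules or belong to the marker lists are not reported here. Full values of Polr2f, Gtf2f1, Taf11 and Supt5 are given outside that rule, as partners or near the limit, and were chosen after their values were seen. Gene positions are from GENCODE on mm10, matched by symbol for all 68 members, Taf4a through an older symbol, and pseudogenes were searched at 95% identity over at least 300 bases. Promoter windows are from RefSeq on GRCm38.p6. Scripts ran in Python 3.11.15 with pandas 2.3.3 and scipy 1.17.1.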

Additional observations from a re-analysis of the deposited data

How the results depend on the processing

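Over the settings other than the fold limit, 6 to 12 members were called lower. Taf13, Gtf2f2, Polr2g, Gtf2h1, Gtf2e2 and Polr2h remained lower and Supt4a remained higher in all of them, while Cdk9, Taf10 and Taf1d were lost in some. With a fold above 2 on the log2(FPKM + 1) scale, 0 members were lower and 0 higher, and 216 and 367 of all genes. The other genes of the pathway gave 0 and 0, and 0 Pol I and Pol III genes were lower. Polr3g fell from 2.67 to 1.31 FPKM but stayed within the limit on that scale, which understates the change of low genes. Under quantile normalization, the replicate block, and replicates 1 and 2 against 3 and 4 as a covariate, 2 members were higher, Polr2f joining Supt4a. With a mean of at least 5 FPKM, 1517 genes were lower and 1281 higher, compared with 1738 and 1957 at a mean of at least 1 FPKM. Leaving out each library gave 6 to 11 members lower and 1 to 2 higher, 1225 to 1667 genes lower and 1556 to 1864 higher, 1 to 3 other genes of the pathway lower and 1 to 3 higher, and 9 to 11 Pol I and Pol III genes lower. In these leave-outs the log2 difference ran from -0.02 to 0.11 for Ccnt1, from -0.03 to 0.17 for Polr2a and from -0.0090 to 0.14 for Tbp, which was also -0.0047 under sample weights. Polr2a was -0.033 without Med23-/- replicate 4, and Ccnt1 was -0.017 without Med23+/+ replicate 1 and -0.0025 without Med23-/- replicate 4. The cause of these changes was not tested.

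The replicate numbers are shared by the genotypes. The deviations of same-numbered libraries correlated at 0.130, -0.0960, -0.0260 and 0.159, within a range of -0.179 to 0.162 for the other pairs. Med23+/+ replicate 1 gave 0.130, 0.162, -0.144 and -0.128 with Med23-/- replicates 1 to 4. Med23+/+ replicate 4 gave -0.179, -0.139, 0.142 and 0.159. Med23+/+ replicates 2 and 3 did not show this split. Whether the numbers mark a pairing or a batch is not in the labels and was not tested. The replicate block gave 11 members lower and 2 higher, with Ell2, Polr2l and Taf9b added and Cdk9 lost. Read depth, which limits the low genes, was unknown.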
